A study of Homo sapiens with 6 samples.

Results

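The 10 genes described here were the transcriptional coactivators YAP1 and WWTR1 (the gene of the protein TAZ), their DNA-binding partner TEAD1, and 7 genes that are widely used as readouts of these factors, namely CTGF, CYR61, ANKRD1, AXL, AMOTL1, AMOTL2 and LATS2. They were chosen by gene symbol, with earlier results of these data known, and are 10 of the 24462 different symbols in the count files. CTGF and CYR61 were listed under these older symbols for CCN2 and CCN1, and each of the 10 had its own row. The bulk RNA-seq data held 3 libraries of 1CT and 3 of 1CT-A. 1CT is an immortalized line of human colonic epithelial (HCEC) progenitor cells with wild-type APC, and 1CT-A is its derivative with knockdown of APC, the scaffold protein that keeps β-catenin low in the Wnt pathway. The comparison asked how the transcriptome of these cells differs when APC is depleted. Cells of both lines were untreated and grown in the same medium with EGF at 20 ng/ml, hydrocortisone, insulin, transferrin, selenite and 2% fetal bovine serum. Whether 1CT-A is a clone, whether 1CT carries a control vector and whether the 3 libraries of a line came from separate cultures is not given in the sources used here, so the p-values measure only the spread between these libraries, which may be technical. A trait of the 1CT-A cells that is not due to APC cannot be told apart from the knockdown.

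YAP and TAZ have no DNA-binding domain of their own and switch genes on through TEAD proteins at their target promoters and enhancers. The Hippo kinases MST and LATS phosphorylate YAP and TAZ, which are then held in the cytoplasm or degraded, while cell spreading, stiff substrates and serum keep them in the nucleus. Several targets, among them the kinase LATS2 and the YAP-binding scaffolds AMOTL1 and AMOTL2, act back on YAP and TAZ as inhibitors. In the intestinal epithelium these factors are known for their part in regeneration after injury and in tumor growth, and the APC destruction complex is known to bind them. mRNA levels do not show where YAP and TAZ proteins were in the cell.

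Levels are given as CPM, counts per 1000000 counts of a library, without further scaling, while fold changes come from the fit with TMM scaling. Total counts were 7788679 to 8452258 in 1CT and 11158108 to 12602988 in 1CT-A, deeper by a factor of 1.43 on average, so that 3 counts, taken as the floor of detection, corresponded to 0.355 to 0.385 CPM in the shallower and 0.238 to 0.269 CPM in the deeper line. The 10 genes were far above this floor in all libraries, the fewest counts being the 192 to 354 of ANKRD1 in 1CT-A. APC itself was at 43.8 to 49.3 CPM in the 1CT libraries and 30.0 to 34.4 CPM in the knockdown, and its log2 fold change was -0.58 (SE 0.09, edgeR adjusted p = 0.000176). Replicate 3 of 1CT stood apart from the other 1CT libraries, where the chi-square divided by its degrees of freedom was 7.06 and 8.42 against them, compared with 3.62 between those other libraries and 3.0 to 4.35 within 1CT-A. Where leaving out this library turned the sign or the call of a named gene of the pathway or moved its value by more than 1.5 times, both values are given. The labelled cell type was checked against 8 markers of colon epithelium. EPCAM and VIL1 had 0 counts in all 6 libraries, KRT20 and CDX2 had at most 1 count, CDH1 at most 4 and KRT8 at most 14, so that 6 of the 8 were at or near 0 in both lines. The keratins KRT18 and KRT19 were the other 2, KRT18 with 36 to 109 counts in every library and KRT19 with 20 to 34 counts in 1CT and 0 in 1CT-A. All 8 mesenchymal markers were detected, among them vimentin and collagens.

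The 7 target genes were lower in 1CT-A, whereas the mRNAs of the 3 factors that act on them did not pass the test in either direction. ANKRD1 fell 49.2-fold and CTGF 3.20-fold, LATS2, AMOTL1 and AMOTL2 fell 1.65-fold to 1.75-fold, AXL fell 1.32-fold and CYR61 1.23-fold, the last with a call that was lost with any of 5 of the 6 libraries left out. YAP1, WWTR1 and TEAD1 had fold changes between 1.02 and 1.16. A gene was called where edgeR's quasi-likelihood (QL) test gave it an adjusted p (Benjamini-Hochberg, over the 12514 genes tested) under 0.05, and all 10 genes were among those tested. Of the 10, 7 were called lower and 0 higher, where 26.0% of all genes tested were called lower and 25.0% higher. The median log2 fold change was -0.74 over the 7 targets, 0.14 over the 3 factors and -0.0067 over all genes tested. In bulk RNA, fewer cells that express a gene and less RNA per cell cannot be told apart.

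**Figure D1:**
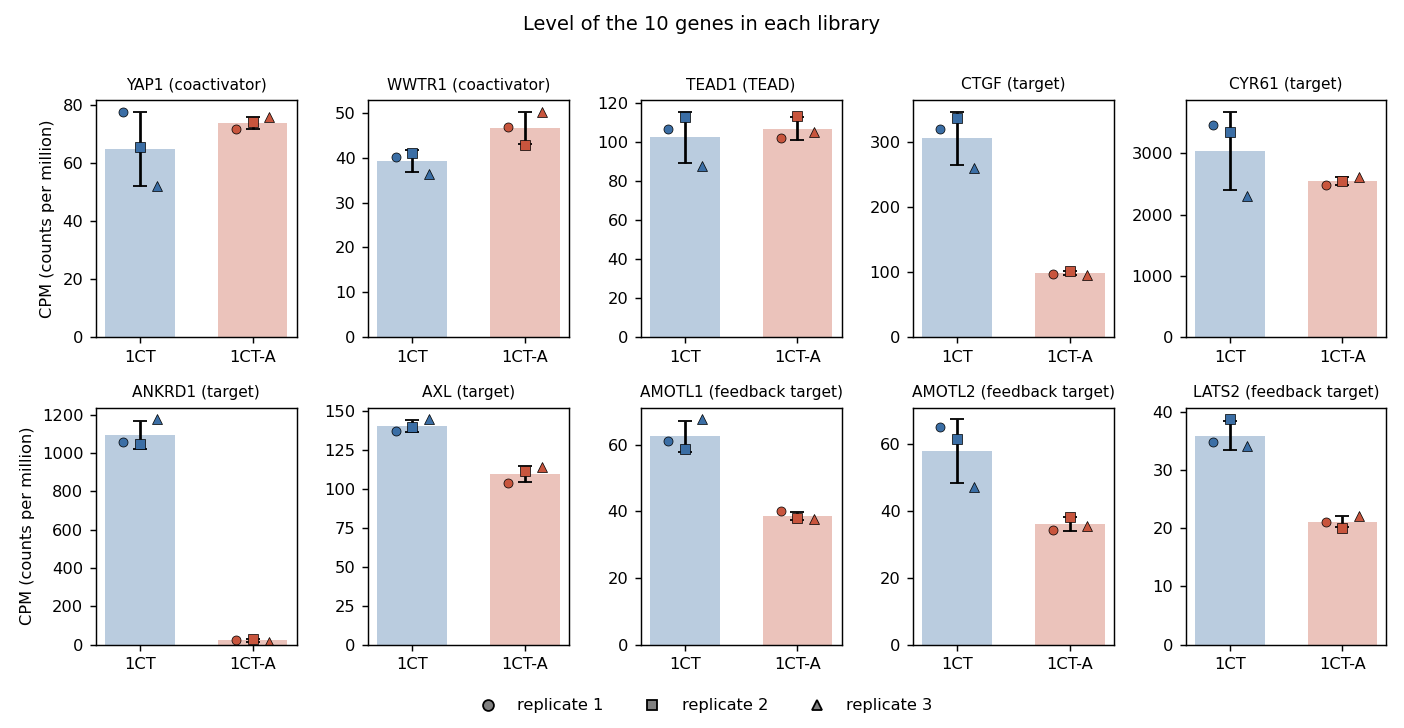
Level of each of the 10 genes in CPM on a linear axis from 0, with 1CT in blue and 1CT-A in red. Bars are means of 3 libraries, whiskers are 1 SD and each marker is a library. The ANKRD1 libraries of 1CT-A (15.2 to 31.1 CPM) sit close to the axis below those of 1CT (1045 to 1176 CPM), while the libraries of YAP1, TEAD1 and CYR61 overlap between the lines.

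YAP1, on chromosome 11 (102110447 to 102233424, plus strand, GRCh38), encodes the coactivator YAP. Its level in 1CT was 77.5, 65.4 and 52.0 CPM in replicates 1, 2 and 3, and in 1CT-A it was 71.6, 74.1 and 75.7 CPM. The 1CT libraries spread on both sides of the 3 tightly grouped 1CT-A libraries. The means were 65.0 ± 12.8 and 73.8 ± 2.06 CPM (SD, n = 3 each), and the log2 fold change was 0.14 (SE 0.11, 95% interval -0.10 to 0.39, edgeR adjusted p = 0.310). The interval leaves room for a change in either direction, the upper bound being the larger. This value rested on the spread of 1CT, since it was 0.29 without 1CT replicate 1 (adjusted p = 0.0386) and 0.02 without 1CT replicate 3 (adjusted p = 0.831).

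WWTR1, on chromosome 3 (149517235 to 149736714, minus strand), encodes TAZ, the paralog of YAP. It was at 40.1, 41.2 and 36.5 CPM in 1CT and at 46.9, 42.9 and 50.2 CPM in 1CT-A. All 1CT-A libraries lay above all 1CT libraries, by a narrow margin at replicate 2 of both lines, and the exact two-sided permutation test on log2(CPM + 1) gave p = 0.1, the smallest that 3 libraries against 3 allow. Means of 39.2 ± 2.47 and 46.7 ± 3.66 CPM (SD, n = 3 each) gave a log2 fold change of 0.21 (SE 0.09, 95% interval 0.01 to 0.41), which missed the threshold after adjustment (unadjusted p = 0.0392, edgeR adjusted p = 0.0716). It was called without 1CT-A replicate 2 (0.28, adjusted p = 0.0458), with scaling by library size only (0.25, adjusted p = 0.0389) and without a filter on low counts (0.26, adjusted p = 0.0363). Of all genes tested, 31.8% had their 1CT-A libraries entirely above the 1CT libraries. An antisense gene, WWTR1-AS1, overlaps WWTR1 and had 2 to 8 counts per library.

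TEAD1, on chromosome 11 (12674421 to 12944737, plus strand), encodes a TEAD family transcription factor that carries YAP and TAZ to DNA. The 1CT libraries had 106, 113 and 87.6 CPM and the 1CT-A libraries 102, 113 and 105 CPM. They overlapped almost completely, apart from the low replicate 3 of 1CT. Means were 102.4 ± 13.2 and 106.8 ± 5.98 CPM (SD, n = 3 each), the log2 fold change was 0.02 (SE 0.09, 95% interval -0.18 to 0.22, edgeR adjusted p = 0.854), and it was -0.06 without 1CT replicate 3 (adjusted p = 0.489).

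CTGF (chromosome 6, 131948176 to 131951372, minus strand) and CYR61 (chromosome 1, 85580761 to 85584589, plus strand) encode secreted matricellular proteins of the CCN family, and both are standard readouts of YAP and TAZ. CTGF was at 321, 338 and 260 CPM in 1CT and at 96.9, 102 and 96.2 CPM in 1CT-A. Each 1CT library was far above every 1CT-A library. From 306 ± 41.1 to 98.4 ± 3.28 CPM (SD, n = 3 each), CTGF fell by 1.68 on the log2 scale (SE 0.09, 95% interval -1.87 to -1.48, edgeR adjusted p = 1.47e-08). With any library left out the log2 fold change stayed between -1.77 and -1.60. An overlapping gene on the other strand, LINC01013, had 0 counts in every library.

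CYR61 was at 3469, 3359 and 2311 CPM in 1CT and at 2484, 2544 and 2614 CPM in 1CT-A. Replicates 1 and 2 of 1CT were above the 1CT-A libraries and replicate 3 was below all of them, so that the groups overlapped and the exact permutation p was 0.4. The means were 3046 ± 639 and 2547 ± 65.1 CPM (SD, n = 3 each), and the log2 fold change was -0.30 (SE 0.11, 95% interval -0.54 to -0.05, edgeR adjusted p = 0.0433), close to the threshold. Without 1CT replicate 3 it was -0.45 (adjusted p = 1.50e-06), and with any of the other 5 libraries left out it was -0.31 to -0.19 and no longer called (adjusted p = 0.0886 to 0.190). The call was also lost with scaling by library size only (-0.26, adjusted p = 0.0828) and in limma-voom (-0.28, adjusted p = 0.0506). The 95% intervals of CTGF and CYR61 did not overlap, and the difference between the 2 genes was not tested.

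ANKRD1 (chromosome 10, 90912096 to 90921087, minus strand) encodes an ankyrin repeat protein of muscle and stressed cells whose mRNA follows YAP activity in many cell types. Its level was 1055, 1045 and 1176 CPM in 1CT, from 8655 to 9160 counts. In 1CT-A it was 22.4, 31.1 and 15.2 CPM, from 192 to 354 counts. The lines were separated by a wide gap, although the 1CT-A libraries themselves spread more widely than those of any of the other 9 genes, with log2 deviations from their mean of 0.02, 0.48 and -0.50. The means were 1092 ± 72.9 and 22.9 ± 7.93 CPM (SD, n = 3 each), and ANKRD1 fell by 5.62 on the log2 scale (SE 0.18, 95% interval -6.02 to -5.23, edgeR adjusted p = 1.92e-10). Counted from the most negative value, this was rank 63 of the 12514 genes tested, and CTGF was at rank 660. ANKRD1 and CTGF were the 2 of the 10 genes that passed the thresholds of the study's methods, a 2-fold difference with p (unadjusted) under 0.01, as 9.60% of all genes tested did in the lower direction.

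AXL (chromosome 19, 41219223 to 41261766, plus strand) encodes a receptor tyrosine kinase that binds GAS6. It was at 137, 140 and 145 CPM in 1CT and at 104, 111 and 114 CPM in 1CT-A. Every 1CT-A library was below every 1CT library. The means were 140.6 ± 3.95 and 109.6 ± 5.31 CPM (SD, n = 3 each), and the log2 fold change of -0.40 (SE 0.07, 95% interval -0.55 to -0.24, edgeR adjusted p = 0.000506) was small but several times its error.

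**Figure D2:**
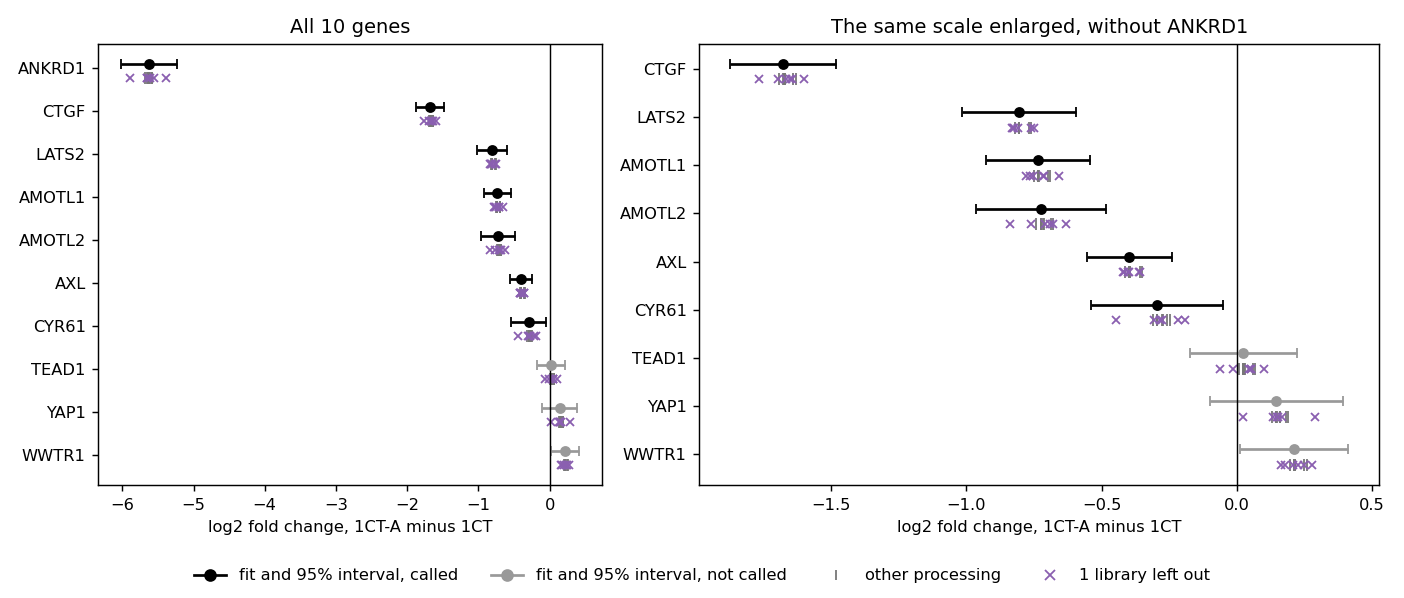
Log2 fold change of the 10 genes, 1CT-A minus 1CT, with 95% intervals from the edgeR fit (black where called, grey where not). Ticks below each interval give the other ways of processing and crosses give fits with 1 library left out. The right panel enlarges the scale and omits ANKRD1 (-5.62). CTGF, LATS2, AMOTL1, AMOTL2 and AXL keep all their marks below 0, the marks of CYR61 run from -0.45 to -0.19, and those of TEAD1 fall on both sides of 0.

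The 3 targets that act back on the pathway moved by similar amounts. LATS2 (chromosome 13, 20973036 to 21061586, minus strand), the kinase that phosphorylates YAP and TAZ, was at 34.9, 38.8 and 34.2 CPM in 1CT and at 21.2, 20.1 and 22.1 CPM in 1CT-A. No 1CT-A library reached the lowest 1CT library. From 35.9 ± 2.47 to 21.1 ± 0.98 CPM (SD, n = 3 each), LATS2 fell by 0.81 on the log2 scale (SE 0.10, 95% interval -1.02 to -0.60, edgeR adjusted p = 1.72e-05).

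AMOTL1 (chromosome 11, 94706431 to 94876748, plus strand) encodes an angiomotin-like scaffold of cell junctions that binds YAP. It was at 61.0, 58.8 and 67.7 CPM in 1CT and at 40.0, 38.0 and 37.7 CPM in 1CT-A. The libraries of the lines were well apart. Means of 62.5 ± 4.61 and 38.6 ± 1.24 CPM (SD, n = 3 each) gave a log2 fold change of -0.74 (SE 0.09, 95% interval -0.93 to -0.54, edgeR adjusted p = 1.75e-05).

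AMOTL2 (chromosome 3, 134355347 to 134375479, minus strand), its paralog, was at 65.1, 61.3 and 47.0 CPM in 1CT and at 34.1, 38.2 and 35.5 CPM in 1CT-A. Replicate 3 of 1CT was low, as it was for CTGF and CYR61, but it remained above all 1CT-A libraries. Means of 57.8 ± 9.54 and 35.9 ± 2.06 CPM (SD, n = 3 each) gave a log2 fold change of -0.73 (SE 0.11, 95% interval -0.97 to -0.49, edgeR adjusted p = 0.000132), and -0.84 without that library. The intervals of LATS2, AMOTL1 and AMOTL2 overlapped widely.

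In 6 of the 10 genes every 1CT-A library was below every 1CT library, where 27.9% of all genes tested had this order. CYR61 was the target outside this count. Summed over the 6 targets other than CYR61, the level was 1674 to 1730 CPM for 1CT and 318 to 341 CPM for 1CT-A. ANKRD1 made up most of the 1CT sums (1045 to 1176 CPM) but little of the 1CT-A sums (15.2 to 31.1 CPM). The gap between these sums was therefore mostly due to ANKRD1 and is no measure of the 6 targets as a set. With CYR61 added, the sums were 4041 to 5144 CPM and 2802 to 2934 CPM, still without overlap. Within 1CT, the genes did not all deviate in the same direction in replicate 3. The share of all genes tested that were lowest in this library was not counted. The order of the libraries is therefore no trait of these genes. Replicate 3 was the lowest 1CT library for YAP1, WWTR1, TEAD1, CTGF, CYR61, AMOTL2 and, narrowly, LATS2 (34.2 against 34.9 CPM in replicate 1). Its log2 deviations from the mean of the line went down to -0.375 for CYR61. For ANKRD1, AXL and AMOTL1 the same library was the highest, with deviations of 0.11, 0.04 and 0.12. Without this library 7 of the 10 genes were again called, all of them targets, with log2 fold changes from -5.55 for ANKRD1 to -0.36 for AXL. Among all genes, that fit called 3299 lower and 3252 higher, compared with 3257 and 3131 in the fit to all 6 libraries.

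The promoters of the genes, targets and factors alike, were read from RefSeq (GRCh38.p14) to describe their sequence. The targets are known readouts of factors that act through TEAD proteins. A high share of matches was therefore likely in advance and tests nothing about 1CT-A. TEAD proteins bind the sequence GGAATG, and windows of 250 bases before to 50 bases after an annotated start were searched for these letters on both strands. Windows were at hand for 8 of the 10 genes, 11 windows in all, and CYR61 and TEAD1 were the genes not matched. The letters were in 6 of the 11 windows, which belonged to 6 of the 8 genes, where 14.0% of all 35116 windows of the same length held them. CTGF had 3 matches, as had 0.128% of all windows when counted as 3 or more, and ANKRD1 had 2, as had 1.37% of all windows when counted as 2 or more. The 250 bases before the starts of these 2 genes, which fell by the largest factors, follow on the strand of the gene with the matches in capitals, the CTGF stretch at chr6:131951373-131951622 and the ANKRD1 stretch at chr10:90921088-90921337, both on the minus strand.
CTGF: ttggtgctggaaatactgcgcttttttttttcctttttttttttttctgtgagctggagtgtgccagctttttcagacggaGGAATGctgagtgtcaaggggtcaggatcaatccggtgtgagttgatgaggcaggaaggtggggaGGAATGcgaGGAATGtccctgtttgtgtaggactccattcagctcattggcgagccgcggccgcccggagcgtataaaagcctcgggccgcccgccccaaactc
ANKRD1: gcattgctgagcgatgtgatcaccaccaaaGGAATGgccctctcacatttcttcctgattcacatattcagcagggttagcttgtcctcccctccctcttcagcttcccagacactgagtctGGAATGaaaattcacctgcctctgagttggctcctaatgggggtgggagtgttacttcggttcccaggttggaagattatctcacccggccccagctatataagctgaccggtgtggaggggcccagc
In CTGF the matches began at -169, -104 and -95 relative to the start, the last 2 of them separated by 3 bases, and in ANKRD1 they began at -220 and -128. The ANKRD1 window also matched TGANTCA, a loose form of the AP-1 motif with any base at N, at -195. It reads TGATTCA there, whereas the AP-1 consensus has C or G at N. TGANTCA was matched in 7.71% of all windows and in none of the other 10 windows.

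Single matches were found for YAP1, AMOTL2, AXL and LATS2, so that the letters were not restricted to genes that fell. They are shown within 30 bases for a factor gene, a feedback target and the receptor, at chr11:102110273-102110302 for YAP1 (plus strand), at chr3:134374499-134374528 for AMOTL2 (minus strand) and at chr19:41226531-41226560 for AXL (plus strand). Capitals mark the match, which reads CATTCC where the motif lies on the strand opposite to the gene.
YAP1: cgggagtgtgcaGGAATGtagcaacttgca
AMOTL2: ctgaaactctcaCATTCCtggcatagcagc
AXL: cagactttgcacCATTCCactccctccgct
The AMOTL2 and AXL matches were in the window of the second listed start of each gene and not in that of the first, and the LATS2 match began 10 bases after the start. Windows of WWTR1 and AMOTL1 held no match, which says only that these letters are not there. Of 12 further YAP/TAZ target genes with a window, 4 held a match. These counts describe sequences, and binding was not measured.

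**Figure D3:**
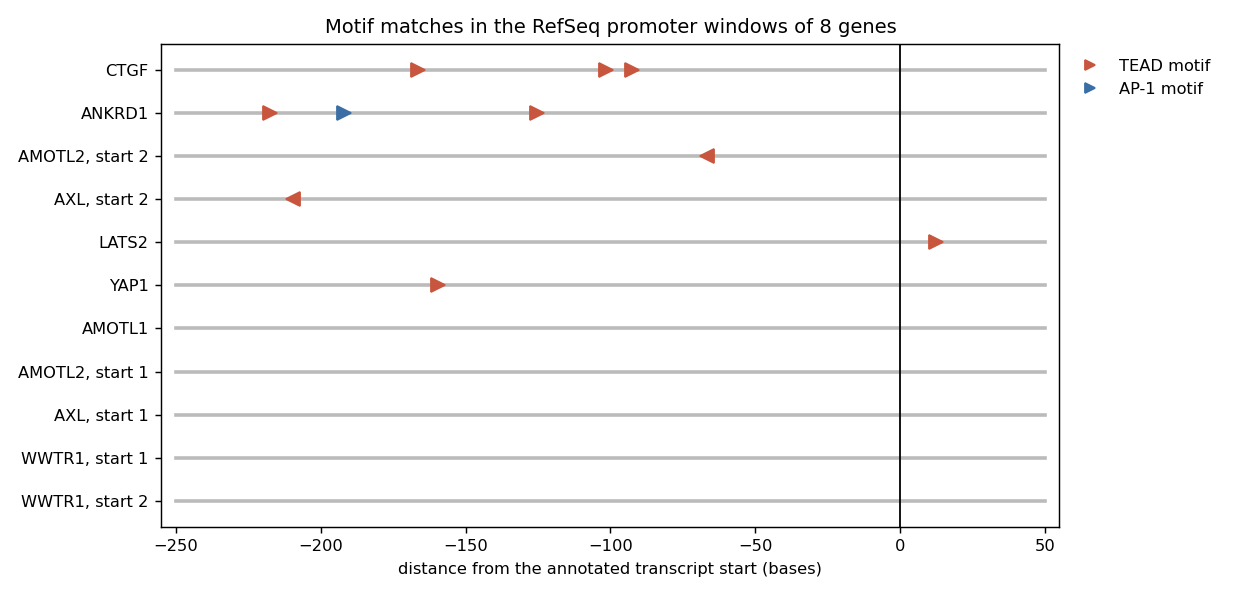
Matches to the TEAD letters (red) and to TGANTCA, the loose form of the AP-1 motif (blue), in the 11 promoter windows of 8 of the 10 genes. The axis gives the distance from the annotated transcript start in bases. Triangles pointing right lie on the strand of the gene and those pointing left on the other strand. CTGF holds 3 TEAD matches and ANKRD1 holds 2 with 1 match to TGANTCA between them, while the windows of AMOTL1 and WWTR1 are empty.

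Other genes of the pathway were described by lists. These were also chosen with earlier results of these data known, so their counts are a description and no independent test. Among 16 further genes that are commonly used as YAP/TAZ targets, 13 were called lower and 2 higher, where 26.0% of all genes tested were called lower and 25.0% higher. Their median log2 fold change was -0.63, and 6 of the 16 passed the 2-fold thresholds in the lower direction, as did 9.60% of all genes tested. In 12 of the 16 every 1CT-A library was below every 1CT library and in 2 above, orders that 27.9% and 31.8% of all genes tested had. The largest declines were in TGFB2, a ligand of the TGF-β family, in IGFBP3, a binding protein of insulin-like growth factors, in the phosphatase PTPN14, which itself binds YAP, and in NT5E, the surface enzyme CD73. TGFB2 was at 15.6, 25.1 and 18.0 CPM in 1CT and at 3.76, 6.76 and 2.46 CPM in 1CT-A, with a log2 fold change of -2.23 (SE 0.28, edgeR adjusted p = 2.16e-05). The log2 fold changes of IGFBP3, PTPN14 and NT5E were -1.36 (SE 0.10), -1.30 (SE 0.10) and -1.22 (SE 0.08).

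The 2 genes of this list that went the other way, named after their values were seen, were F3, the tissue factor of coagulation, and FJX1. F3 was at 171, 175 and 82.7 CPM in 1CT and at 213, 259 and 258 CPM in 1CT-A. All 1CT-A libraries were higher, and replicate 3 of 1CT was far below its own group. Its log2 fold change was 0.73 (SE 0.20, edgeR adjusted p = 0.00747), 0.47 without 1CT replicate 3 (adjusted p = 9.91e-05), and DESeq2 did not call it (adjusted p = 0.0635). FJX1 rose by 0.72 on the log2 scale (SE 0.14, edgeR adjusted p = 0.000829). FOXF2 was the gene of the list that was not called, at -0.26 (SE 0.29), or -0.54 without 1CT replicate 3 (adjusted p = 0.0551) and 0.17 without 1CT replicate 2 (adjusted p = 0.631). Summed over the 16 genes, the level was 7812 to 8999 CPM for 1CT and 4312 to 4606 CPM for 1CT-A. CCDC80 alone made up most of these sums, at 5870 to 7337 CPM before and 2982 to 3329 CPM after knockdown. The sums therefore mainly follow this gene and do not describe the list as a whole.

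Kinases and scaffolds upstream of YAP and TAZ were mixed. Of 22 genes tested, 7 were called lower, 3 higher and 12 not, with a median log2 fold change of -0.087, where 26.0% of all genes tested were called lower and 25.0% higher. The kinases MST2 (STK3) and MST1 (STK4), which stand at the head of the cascade, had log2 fold changes of -0.41 (SE 0.17, edgeR adjusted p = 0.0518) and 0.31 (SE 0.09, edgeR adjusted p = 0.0133). STK3 was called without 1CT-A replicate 3 (-0.52, adjusted p = 0.0445), with at least 10 counts required in every library (-0.43, adjusted p = 0.0440) and in limma-voom (-0.42, adjusted p = 0.0477). STK4 was no longer called without 1CT replicate 1 (0.28, adjusted p = 0.0550) or 1CT-A replicate 3 (0.26, adjusted p = 0.0729). LATS1, the paralog of LATS2, was at 11.0, 13.2 and 7.32 CPM in 1CT and at 12.2, 10.6 and 12.3 CPM in 1CT-A. Its libraries overlapped, at a log2 fold change of 0.12 (SE 0.18, 95% interval -0.28 to 0.51), which was -0.07 without 1CT replicate 3 (adjusted p = 0.736). AMOT, the paralog of AMOTL1 and AMOTL2, was likewise not called, at 0.18 (SE 0.20, 95% interval -0.25 to 0.62), or 0.30 without that library (adjusted p = 0.284). NF2, the scaffold merlin that recruits LATS kinases, was at -0.14 (SE 0.07, edgeR adjusted p = 0.139).

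The largest called changes of this list were in DCHS1, WWC1, MOB1A and MAP4K5. DCHS1, an atypical cadherin, had 9, 13 and 12 counts in 1CT and 1, 4 and 2 counts in 1CT-A, near the floor, with a log2 fold change of -2.76 (SE 0.51, edgeR adjusted p = 0.000599). WWC1, the scaffold KIBRA that promotes LATS activity, fell by 1.03 on the log2 scale (SE 0.15, edgeR adjusted p = 7.45e-05). MAP4K5, a kinase able to phosphorylate LATS, fell by 0.56 (SE 0.12), and MOB1A, an activating subunit of LATS kinases, rose by 0.70 (SE 0.13, edgeR adjusted p = 0.000585).

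Among the 5 other TEAD and VGLL factors tested, 2 were called lower and 1 higher, where 26.0% of all genes tested were called lower and 25.0% higher. Of the other TEAD factors 1 was called. TEAD4 was at 12.9 to 15.7 CPM in the 1CT libraries and at 19.7 to 22.2 CPM in those of 1CT-A, and it rose by a log2 fold change of 0.50 (SE 0.12, edgeR adjusted p = 0.00469). TEAD2 was at -0.15 (SE 0.12, edgeR adjusted p = 0.297), or 0.02 without 1CT replicate 3 (adjusted p = 0.880), and TEAD3 at 0.13 (SE 0.09, edgeR adjusted p = 0.250), or 0.07 without that library (adjusted p = 0.496). VGLL3 and VGLL4, cofactors that compete with YAP for TEAD proteins, were called lower at -0.29 (SE 0.09, edgeR adjusted p = 0.0139) and -0.26 (SE 0.10, edgeR adjusted p = 0.0391). The VGLL4 call was lost in 9 of 14 alternatives, among them every omission of a library except 1CT replicate 1 (-0.21 without 1CT replicate 3, adjusted p = 0.0931). VGLL3 lost its call without 1CT replicate 1, 1CT replicate 2 or 1CT-A replicate 1 (adjusted p = 0.0512 to 0.0647). VGLL1 and VGLL2 had 0 counts in all libraries.

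**Figure D4:**
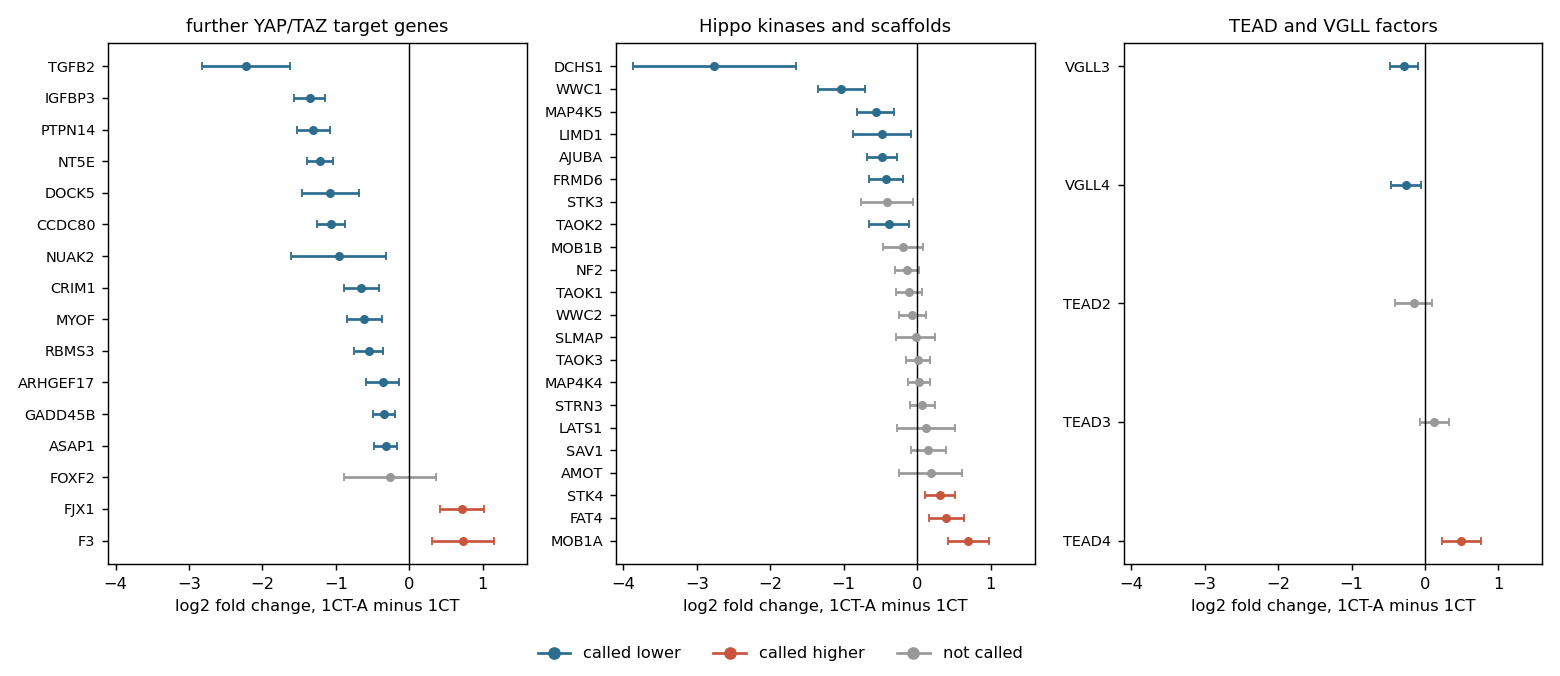
Log2 fold change, 1CT-A minus 1CT, with 95% intervals for the tested genes of 3 lists: 16 further YAP/TAZ target genes, 22 Hippo kinases and scaffolds, and 5 TEAD and VGLL factors. Blue marks genes called lower, red genes called higher and grey genes not called. Of the target genes 13 lie below 0 in blue, whereas most of the kinases and scaffolds lie within 0.5 of 0.

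Relatives of CTGF and CYR61 in the CCN family were scarcely detected. NOV had at most 2 counts in a library, WISP2 at most 4 and WISP3 had 0. WISP1 had 9, 41 and 9 counts in 1CT and 3, 22 and 8 counts in 1CT-A, which overlapped, and its log2 fold change of -1.38 (SE 0.65) was not called (edgeR adjusted p = 0.0938). Without 1CT replicate 2, the library with 41 counts, it was -0.28 (adjusted p = 0.756). Without 1CT replicate 1 or 1CT replicate 3 it was called at -1.74 and -1.68 (adjusted p = 0.0439 and 0.0296). WISP1 was also called without a filter on low counts (-1.33, adjusted p = 0.00237) and with replicate number as a block (-1.36, adjusted p = 0.00957). The receptors and ligands around AXL were not called either. The related receptor TYRO3 was at a log2 fold change of -0.20 (SE 0.11, edgeR adjusted p = 0.154), the ligand GAS6 at 0.18 (SE 0.08, edgeR adjusted p = 0.0781) and the ligand PROS1 at 0.02 (SE 0.23, edgeR adjusted p = 0.961). Without 1CT replicate 3, TYRO3 was at -0.13, GAS6 at 0.11 and PROS1 at -0.15, none of them called (adjusted p = 0.154 to 0.604). GAS6 was called without 1CT replicate 2 (0.24, adjusted p = 0.0442), with scaling by library size only (0.22, adjusted p = 0.0460) and without a filter (0.23, adjusted p = 0.00910). MERTK, the third receptor of this family, had at most 1 count in any library.

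Some markers of colon epithelium and of mesenchymal cells differed between the lines. Those of endothelial and immune cells had too few counts to be tested. The 8 colon epithelium markers summed to 13.4 to 17.4 CPM over the 1CT libraries and 3.23 to 7.20 CPM over those of 1CT-A. KRT19 had 20, 27 and 34 counts in 1CT and 0 in every 1CT-A library, at least 13.0-fold lower against a floor of 3 counts per library, and KRT18 fell by 1.19 on the log2 scale (SE 0.23, edgeR adjusted p = 0.000882). The 8 mesenchymal markers summed to 4664 to 5656 CPM and 4301 to 4605 CPM. Of the 8, 4 were called lower and 2 higher, where 26.0% of all genes tested were called lower and 25.0% higher. THY1 and PDGFRB fell by 0.91 and 0.98, and COL3A1 rose by 2.37 on the log2 scale. CTGF and ANKRD1 are also made by mesenchymal cells, and the part of these marker differences in the decline of the targets was not tested. Endothelial markers had at most 3 counts in a library, and of the immune markers PTPRC and CD3E had 0 while CD14 had 4 to 13 counts.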

How the data were processed

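The bulk RNA-seq data comprised 3 libraries of 1CT and 3 of 1CT-A, grouped by their labels. Per the labels, libraries were made from 500 ng of total RNA with a Lexogen Quant-Seq kit, and the submitters' processing notes name Bowtie2, edgeR and hg19. The counting tool, annotation, strand setting and filters are not given in the sources used here, so genes that overlap are uncertain. Comparison of levels between genes was limited to sums over lists, to the gene that made up most of a sum and to counts against the floor. The authors deposited raw counts per gene symbol, 25737 rows for 24462 symbols in each library. Repeated symbols (286, none of the 10 genes) were summed. The totals and the counts of 3 that serve as floor cover counting error only.

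Counts were analysed with edgeR 4.0.16 (R 4.3.3), using TMM factors of 0.976 to 1.02, filterByExpr (minimum count 10), quasi-likelihood F tests and Benjamini-Hochberg adjustment over 12514 genes. Standard errors were derived from the F statistic. Exact two-sided permutation tests used log2(CPM + 1). Alternatives were other size factors, other filters on low counts, DESeq2 1.42.0, limma 3.58.1 (voom), a replicate block, the highest row of repeated symbols, an adjusted p under 0.01, a per-gene test with equal variances for the counts past a fold change of 2, and each library left out. Beside the 10 genes, the text names up to 4 called genes with the largest change in each list, close relatives of the 10 genes and core kinases. CCDC80 is named because it made up most of a list sum. The 10 genes and the lists were chosen with earlier results of these data known. Positions are from GENCODE release 44 on GRCh38 and place the genes only, since the counts were made on hg19. Promoters are from RefSeq on GRCh38.p14.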

Additional observations from a re-analysis of the deposited data

How the results depend on the processing

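CTGF, ANKRD1, AXL, AMOTL1, AMOTL2 and LATS2 kept their direction and their call under all 14 alternatives. The number of the 10 genes called was 6 to 8, and 2 passed a fold change of at least 2 throughout. CYR61 was not called with library size only (-0.26) or limma-voom (-0.28), and ranged from -0.45 to -0.19 with a library left out. WWTR1 was called with library size only (0.25), without a filter (0.26) and without 1CT-A replicate 2, with a range of 0.16 to 0.28 over the omissions, and YAP1 ranged from 0.0234 to 0.289 over them. Of all genes, 1676 passed a fold change of at least 2 and 1009 did so when 10 counts were required in every library, a filter that removes genes near 0 in either line. The cause of the other changes was not tested. Genes called numbered 4671 to 7238 against 6388, further targets called lower 11 to 13 against 13, and called genes of the pathway lists 24 to 29 against 28. Library size only shifted the median of all genes to 0.03, with 3441 called higher and 3014 lower.

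Replicate numbers did not consistently pair the libraries (correlation of deviations -0.15, 0.21 and -0.13 over 8231 genes). With 3 libraries per line these correlations are coarse, and WISP1 and TGFB2 were highest in replicate 2 of both lines. With a replicate block 6091 genes were called, among them 7 of the 10 genes (ANKRD1 -5.65, CTGF -1.67, CYR61 -0.27). Of the other pathway genes followed under the alternatives, the block called WISP1 (-1.36, adjusted p = 0.00957) and not VGLL4 (-0.26, adjusted p = 0.0691). It changed no other call among them. APC, CCDC80 and the cell type markers were not followed. Depth limits DCHS1, NOV, WISP1, WISP2 and KRT19, which had few counts. DCHS1 and WISP1 left the test when 10 counts were required in every library, as did WISP1 without 1CT-A replicate 2. The per-gene test was compared only for the counts past a fold change of 2. At an adjusted p under 0.05 it called 4843 genes, 2564 lower and 2279 higher, and its calls of the named genes were not compared.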
